A study of Gallus gallus with 9 samples.

Results

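The genes described here encode fibrillar collagens, which polymerise into the banded fibrils of the extracellular matrix, and fibril-associated collagens, which bind to the surface of those fibrils. They were chosen by name as a list of 10 genes: COL1A1, COL1A2, COL2A1, COL3A1, COL5A1, COL5A2, COL9A1, COL9A3, COL11A1 and COL12A1. Of these, 9 were matched to entries, among 14120 genes with an entry in all. No entry was matched to COL1A1, the partner chain of COL1A2 in type I collagen, and it was not analysed here.

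RNA of the chick embryo (Gallus gallus) was sequenced in 9 libraries, 3 from each of 3 tissues. They were taken on embryonic days 3, 5 and 7 (E3, E5 and E7). The E3 tissue was periocular neural crest, the E5 tissue was corneal endothelium, and the E7 tissue held corneal endothelium and keratocytes together. Periocular neural crest is the migratory mesenchyme around the optic cup, corneal endothelium is the cell layer on the inner face of the cornea, and keratocytes are the fibroblasts of its stroma. The labels name no strain, genotype or treatment. Whether libraries of a stage stem from different embryos or dissections is not stated, and p-values therefore cover the spread among these libraries alone, which may be technical.

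In corneal stroma, type I collagen forms the bulk of the fibrils, and type V collagen is built into them and is known to start their assembly and keep them narrow. The chick cornea is known for an early, acellular stroma of type I and type II collagen laid down under the epithelium before the mesenchyme invades, with type IX collagen on its fibrils. Type XI collagen is the relative of type V that accompanies type II, and type XII collagen binds to type I fibrils. Type III collagen is typical of elastic, loose connective tissues and is sparse in cornea.

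Library totals ran from 9874339 to 23205388 expected counts. The stage labels did not separate the corneal libraries. E5 library 3 correlated at 0.983 and 0.987 with E7 libraries 1 and 2, and at 0.962 and 0.966 with E5 libraries 1 and 2. E7 library 3 correlated at 0.952 and 0.959 with E7 libraries 1 and 2, and at 0.99 and 0.987 with E5 libraries 1 and 2 (Pearson correlation over all genes on log2(CPM + 1), with genes not being independent replicates). Whether the labels of these 2 libraries were exchanged cannot be told from the labels. If they were, each value given here for library 3 of E5 belongs to E7 and the reverse. An exchange of libraries 1 and 2 of E5 with those of E7 would give the same correlations. It cannot be told from the labels either. All libraries are kept under their labels. E5 library 3 and E7 library 3 were also left out together. Log2 fold changes against E3 printed for members and other gene lists are given both ways where that moved them by over 1.5-fold or changed their call. Those of markers, and the counts over the other lists, are from all 9 libraries unless stated. Defining markers fitted the labels in part. SOX10, a marker of migratory crest, had 14.5 to 17.2 FPKM in the E3 libraries and 0.01 to 1 FPKM in the corneal ones. FOXD3 and PAX3 were lower there as well, but TFAP2B ran the other way, from 25.5 to 30.1 FPKM at E3 to 214 to 281 FPKM. The 8 crest markers together summed to 458 to 519 CPM at E3, 959 to 1337 CPM at E5 and 903 to 1125 CPM at E7. AQP1, the water channel of corneal endothelium, had 524 to 1085 FPKM in the 6 corneal libraries. SLC4A11, another marker of that endothelium, was at 0.62 to 0.87 FPKM there. The 8 keratocyte markers summed to 4156 to 14120 CPM at E5 and 4457 to 14745 CPM at E7, so their ranges over the libraries labelled endothelium and over those labelled endothelium and keratocytes were alike. Within each corneal stage library 3 stood apart. E5 libraries 1 and 2 had sums of 14120 and 12477 CPM and E7 library 3 of 14745 CPM, whereas E5 library 3 had 4156 CPM and E7 libraries 1 and 2 had 5517 and 4457 CPM. In such bulk samples, fewer cells of a type and less RNA per cell cannot be told apart.

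Transcripts of the fibril-forming chains of types I, II, V and XI were several times more abundant in both corneal stages than in E3 periocular neural crest. Of 9 members tested, 6 rose and 1 fell at E5 against E3, where 18.5% of all 11748 genes tested rose and 17.7% fell. The same counts, 6 and 1, were found at E7 against E3, where 17.3% of all genes rose and 16.4% fell, and for the mean of both corneal stages against E3 (20.9% and 20.8% of all genes). The risers were COL1A2, COL2A1, COL5A1, COL5A2, COL11A1 and COL12A1, and COL9A3 fell. The median log2 fold change of the 9 tested members was 3.49 at E5 and 3.63 at E7, against medians of 0.03 and 0.04 over all genes tested. Both comparisons use the same 3 E3 libraries. Most markers of blood and vessels were lower in the corneal libraries than at E3. The 6 erythroid markers with an entry summed to 1.53 to 43.8 CPM at E5 and 7.5 to 192 CPM at E7, against 2835 to 3316 CPM at E3, with HBBA at 0 in every E3 library. The 8 markers of vascular endothelium, none of them at 0 throughout a stage, summed to 115 to 137 CPM at E5 and 67 to 110 CPM at E7, against 426 to 482 CPM at E3. ERG ran against this sum, with 49.1 to 75.4 FPKM at E5, 25.7 to 54.8 FPKM at E7 and 14.7 to 17.8 FPKM at E3. All the others had lower means at E5 and E7 than at E3, such as KDR, at 0.04 to 1.33 FPKM against 13.2 to 15.8 FPKM. The part of blood and vessel cells in the comparisons against E3 was not tested. Without E5 library 3 and E7 library 3, 6 rose and 2 fell at E5, and 7 rose and 1 fell at E7. In that fit 25.7% of 11962 genes rose and 24.3% fell at E5, and 21.6% rose and 21.0% fell at E7. Here "rose" and "fell" mean an adjusted p under 0.05 in the edgeR F-test (quasi-likelihood, Benjamini-Hochberg over all genes tested). Adjusted p-values of single genes come from this test unless another is named, and n is 3 libraries per stage. Levels are FPKM, which are per transcript length, so they can be set side by side between genes.

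The summed level of the 9 genes was 376 ± 23 FPKM at E3, 3511 ± 1210 FPKM at E5 and 3429 ± 1216 FPKM at E7 (SD). Their reads made up 0.21 to 0.234% of all counts at E3, 1.24 to 2.64% at E5 and 1.18 to 2.6% at E7.

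**Figure D1:**
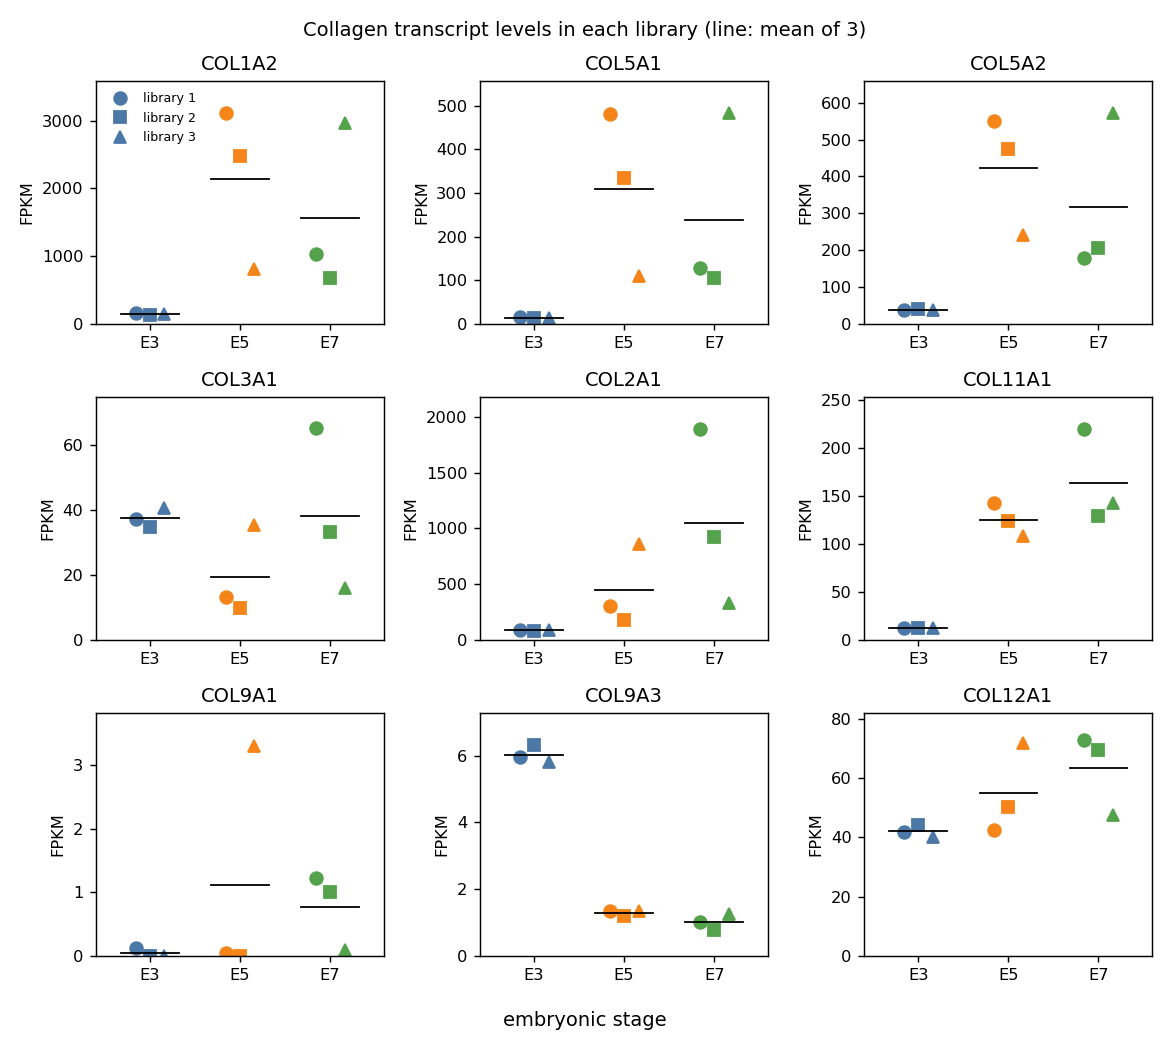
Each panel plots the FPKM of a collagen gene (vertical axis, from 0) by embryonic stage, with circle, square and triangle for libraries 1, 2 and 3 and a line for the mean of the stage. COL11A1 and COL9A3 separated E3 from all corneal libraries, the latter with little spread. For COL1A2, COL5A1, COL5A2, COL2A1, COL3A1 and COL12A1, library 3 of E5 lay on the side of E7 libraries 1 and 2. Library 3 of E7 lay there on the side of E5 libraries 1 and 2.

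COL1A2 (gene ID 396243) encodes a chain of type I collagen, the main collagen of corneal fibrils. It had 157, 130 and 139 FPKM in the E3 libraries, 3113, 2473 and 813 FPKM in E5 libraries 1, 2 and 3, and 1032, 677 and 2972 FPKM in E7 libraries 1, 2 and 3. All 6 corneal libraries lay above all E3 libraries, while E5 and E7 overlapped. Its FPKM was ranked among the 14120 genes with an entry, which leave out COL1A1 and the unmatched entries. It ranked 1st in E5 library 1 and 2nd in E7 library 3, but 75th in E5 library 3 and 89th in E7 library 2. It rose by a log2 fold change of 4.11 ± 0.72 at E5 against E3 (estimate ± SE, adjusted p = 0.00371) and of 3.63 ± 0.70 at E7 against E3 (adjusted p = 0.00587). Without E5 library 3 and E7 library 3 these values were 4.51 and 2.69. The summed keratocyte markers were highest in the same 3 corneal libraries as COL1A2, and their part in its values was not tested. PTGDS, 1 of these markers, did not follow the sum. It had 1.24 FPKM in E5 library 2, against 1.66 FPKM in E5 library 3 and 1.58 and 3 FPKM in E7 libraries 1 and 2.

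COL5A1 (395568) and COL5A2 (423986) encode chains that combine in type V collagen. COL5A1 had 16.3, 12.6 and 12 FPKM at E3, 482, 334 and 110 FPKM in E5 libraries 1, 2 and 3, and 127, 105 and 483 FPKM in E7 libraries 1, 2 and 3. Every corneal library was above every E3 library, with E5 libraries 1 and 2 and E7 library 3 far above the rest. It rose by a log2 fold change of 4.70 ± 0.81 at E5 (adjusted p = 0.0035) and of 4.31 ± 0.79 at E7 (adjusted p = 0.00479), each against E3. Leaving out E5 library 3 and E7 library 3 gave 5.12 and 3.20. COL5A2 had 38, 38.5 and 36 FPKM at E3, 550, 473 and 242 FPKM at E5, and 177, 205 and 572 FPKM at E7. It rose by 3.68 ± 0.55 at E5 (adjusted p = 0.00188) and by 3.25 ± 0.54 at E7 (adjusted p = 0.00307), or by 3.98 and 2.45 without those libraries.

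The level of COL5A2 over that of COL5A1 was 1.14, 1.42 and 2.2 in E5 libraries 1, 2 and 3 and 1.39, 1.95 and 1.19 in E7 libraries 1, 2 and 3, against 2.33, 3.04 and 2.97 in the E3 libraries (FPKM with 0.1 added to each). All corneal ratios were below all E3 ratios. On the log2 scale the ratio was 0.59 ± 0.38 in the 6 corneal libraries and 1.47 ± 0.21 in the 3 E3 libraries (SD), a difference of -0.88 (exact two-sided permutation test, p = 0.0238, the smallest that 84 splits allow, adjusted p = 0.0357 over 3 ratios tested). The call was lost on CPM scaled by TMM (-0.89, adjusted p = 0.0714). All corneal ratios were below all E3 ratios there too, and the adjusted p also depends on the other ratios tested. The call was also lost without E5 library 3 and E7 library 3 (-0.93, adjusted p = 0.0857). When any library was left out it was lost as well (-1.0 to -0.80, adjusted p = 0.0536 to 0.107), where fewer libraries raise the smallest p. Against COL1A2, COL5A1 stood at 0.135 to 0.155 of its FPKM in the E5 libraries and 0.123 to 0.162 in the E7 libraries. All of these were above the E3 ratios, at 0.0868 to 0.103. COL5A2 stood at 0.177 to 0.298 of the FPKM of COL1A2 at E5 and 0.172 to 0.302 at E7, overlapping with 0.241 to 0.297 at E3. Neither ratio to COL1A2 was tested. Over the 9 libraries, log2(CPM + 1) of COL1A2 and COL5A2 had a Pearson correlation of 0.99, and that of COL2A1 and COL12A1 one of 0.95, as a description of libraries that share their stages.

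COL3A1 (396340), the chain of type III collagen, did not share these rises. It had 37.2, 34.8 and 40.6 FPKM at E3, 13.1, 9.77 and 35.2 FPKM in E5 libraries 1, 2 and 3, and 65, 33.3 and 15.9 FPKM in E7 libraries 1, 2 and 3. The stages overlapped, and the lowest values were in E5 libraries 1 and 2 and E7 library 3, where COL1A2 was highest. The log2 fold change was -0.80 ± 0.55 at E5 (adjusted p = 0.286) and 0.14 ± 0.54 at E7 (adjusted p = 0.865), each against E3. Without E5 library 3 the value at E5 was -1.50 (adjusted p = 0.0471, or 0.00418 without E7 library 3 as well). The FPKM of COL3A1 was 0.00395 to 0.0434 of that of COL1A2 at E5 and 0.00534 to 0.063 at E7, against 0.236 to 0.293 at E3.

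COL2A1 (395069) encodes the chain of type II collagen, the fibrillar collagen of cartilage, vitreous and the early chick corneal stroma. It had 90.8, 75.8 and 86.6 FPKM in the E3 libraries, 305, 178 and 857 FPKM in E5 libraries 1, 2 and 3, and 1888, 922 and 325 FPKM in E7 libraries 1, 2 and 3. Each corneal library was above each E3 library, and the highest corneal values were in E5 library 3 and E7 libraries 1 and 2, where COL1A2 was lowest. COL2A1 rose by 3.74 ± 0.73 at E7 against E3 (adjusted p = 0.00613) and by 2.55 ± 0.69 at E5 against E3 (adjusted p = 0.0226). The call at E5 was lost without E5 library 3, at a log2 fold change of 1.73 (adjusted p = 0.0521), but not without both E5 library 3 and E7 library 3, at 1.73 (adjusted p = 0.00391). It was also lost, with a fold change of nearly the same size, whenever an E3 library was left out (2.49 to 2.6, adjusted p up to 0.0808) and with a block for the replicate number (2.45, adjusted p = 0.0629). The value at E7 was 4.16 without both libraries.

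The level of COL2A1 over that of COL1A2 was 0.098, 0.0719 and 1.05 in E5 libraries 1, 2 and 3 and 1.83, 1.36 and 0.109 in E7 libraries 1, 2 and 3, against 0.577 to 0.625 at E3. This ratio was chosen after the values were seen and is not tested. The chain make-up of the libraries followed it. COL1A2 took 67, 67.9 and 65.2% of the summed FPKM of the 9 genes in E5 libraries 1 and 2 and E7 library 3, and COL2A1 6.56, 4.88 and 7.13%. In E5 library 3 and E7 libraries 1 and 2, COL1A2 took 36.3, 28.8 and 31.6% and COL2A1 38.2, 52.7 and 43%. The E3 libraries held 36.6 to 39.3% COL1A2 and 21.4 to 23.3% COL2A1, and larger shares of COL3A1 (9.29 to 10.9%) and COL12A1 (10.5 to 12.5%) than any corneal library.

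**Figure D2:**
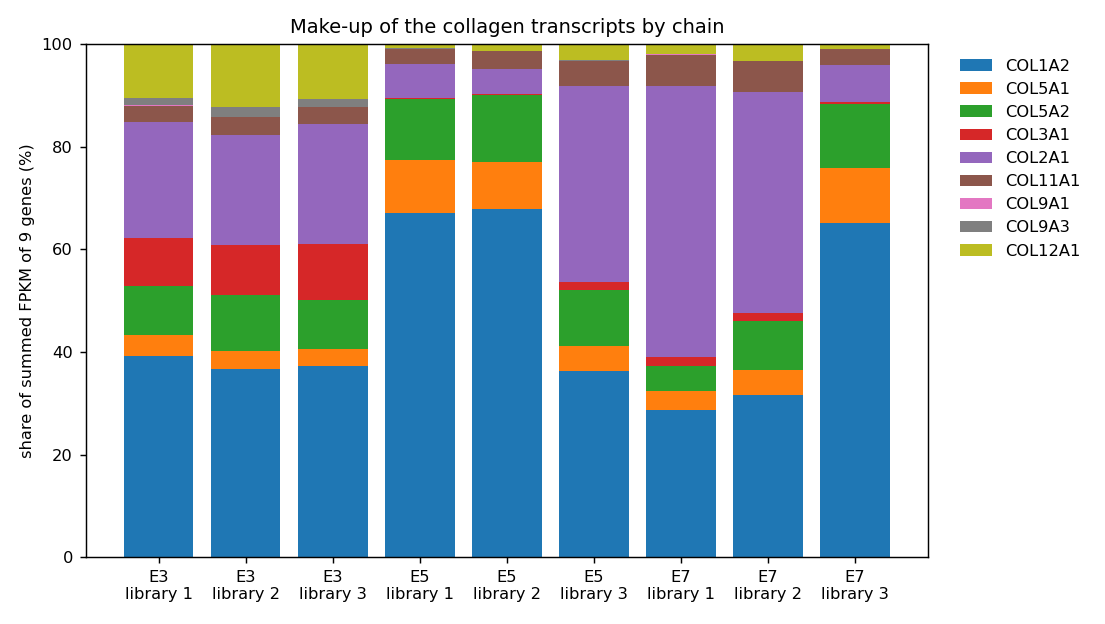
Stacked bars give the share of each collagen gene in the summed FPKM of the 9 genes (vertical axis, %) for each library. COL1A2 held 65.2 to 67.9% in E5 libraries 1 and 2 and E7 library 3, while COL2A1 held 38.2 to 52.7% in E5 library 3 and E7 libraries 1 and 2.

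**Figure D3:**
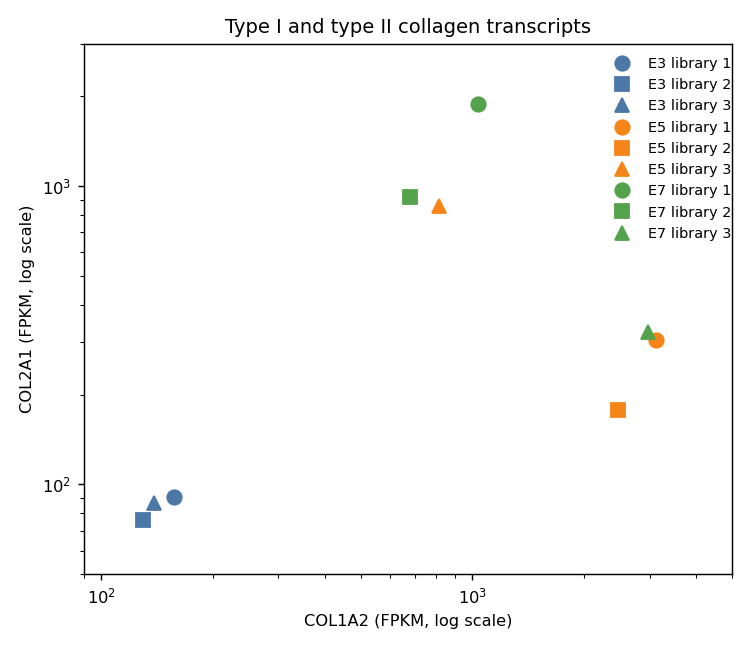
COL2A1 is plotted against COL1A2, both in FPKM on log axes, with colour for the stage and shape for the library number. The E3 libraries lay at the low end of both genes, and E5 library 3 and E7 library 3 each lay among libraries of the other corneal stage.

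Markers of other tissues, among them some that make type II collagen, were measured in the same libraries. Of 12 markers of corneal epithelium and surface ectoderm, 9 had an entry and none was at 0 in every library of a stage. They summed to 113 CPM in E5 library 3, 256 CPM in E7 library 1 and 138 CPM in E7 library 2. In the other corneal libraries they summed to 15.5 to 24.2 CPM, and at E3 to 20.5 to 25.6 CPM. The epithelial adhesion molecule EPCAM had 31.7 FPKM in E5 library 3 and 72.5 and 37.9 FPKM in E7 libraries 1 and 2, but 1.61 to 3.34 FPKM in the other 3 corneal libraries. The epithelial list thus moved with COL2A1 among the corneal libraries, and its part in the COL2A1 values was not tested. The 11 cartilage markers summed to 35.7 to 120 CPM at E5, 56.6 to 82.8 CPM at E7 and 73 to 98.1 CPM at E3. Of the 8 tested, 1 rose and 4 fell at E5 against E3, and 1 rose and 2 fell at E7 against E3. Over all genes tested, 17.3 to 18.5% rose and 16.4 to 17.7% fell. The fallers were MATN1, MATN4, HAPLN1 and SOX9 at E5, and MATN1 and SOX9 at E7. The riser was epiphycan (EPYC), a small proteoglycan of cartilage, with 5.98 to 39.2 FPKM at E5 and 6.12 to 20.5 FPKM at E7, against 0.21 to 0.33 FPKM at E3 (log2 fold change 6.56 ± 0.89, adjusted p = 0.00127, and 5.79 ± 0.87, adjusted p = 0.00206). Chondromodulin, listed as LECT1, stood at 7.39 to 16 FPKM in the corneal libraries and 12.3 to 15.4 FPKM at E3. Aggrecan (ACAN) was at 0 to 1.34 FPKM in the corneal libraries and at 0.09 to 0.16 FPKM at E3. Matrilin (MATN1) was at 0 to 0.08 FPKM in the corneal libraries, against 0.81 to 1.23 FPKM at E3. COL10A1 was at 0 in every E5 library and COMP in every E7 and every E3 library. The 7 neural retina markers with an entry summed to 8.73 CPM in E5 library 3 and to 11.4 and 6.85 CPM in E7 libraries 1 and 2, to 0.44 to 1.06 CPM in the other corneal libraries and to 1.58 to 2.45 CPM at E3. PAX6 had 6 FPKM in E5 library 3 and 5.55 and 3.43 FPKM in E7 libraries 1 and 2, and 0 to 0.26 FPKM in the other corneal libraries. The 7 markers of pigmented epithelium and melanocytes, none at 0 throughout a stage, summed to 59.4 CPM in E5 library 3 and to 71 and 66.6 CPM in E7 libraries 1 and 2. In the other corneal libraries they summed to 28.5 to 29.8 CPM, and at E3 to 32 to 36.2 CPM. Both lists thus moved with COL2A1 among the corneal libraries, at low sums, and their part in its values was not tested. Of the retina markers, RAX, SIX6 and NEUROD1 were at 0 in every E5 library, NEUROD1 in every E7 library and PAX6 in every E3 library. The 9 corneal endothelium markers summed to 4317 CPM in E5 library 3 and 3577 and 3766 CPM in E7 libraries 1 and 2. They summed to 3102 to 3278 CPM in the other corneal libraries, where AQP1 and COL8A1 were higher. The 4 leukocyte markers with an entry were at 45.3 CPM, 81.5 and 50.4 CPM, and 16.1 to 20.4 CPM in the same order. These lists thus moved with COL2A1 as well, and their part in its values was not tested.

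COL11A1 (374046) encodes a chain of type XI collagen. Its level was 12.6, 12.8 and 12.3 FPKM at E3, 143, 124 and 108 FPKM at E5 and 220, 129 and 143 FPKM at E7. Every corneal library was far above every E3 library, and E5 and E7 overlapped. The log2 fold change against E3 was 3.49 ± 0.22 at E5 (adjusted p = 2.86e-05) and 3.83 ± 0.22 at E7 (adjusted p = 2.21e-05), and 3.61 and 3.88 without E5 library 3 and E7 library 3. The level of COL11A1 over that of COL5A1 ran from 0.297 to 0.984 at E5 and from 0.296 to 1.72 at E7, against 0.775 to 1.02 at E3. Its log2 value differed by -0.54 between the corneal and the E3 libraries, with a spread of 1.13 (SD) among the corneal ones (exact two-sided permutation test, adjusted p = 0.429). Over COL2A1, COL11A1 stood at 0.468, 0.697 and 0.126 in E5 libraries 1, 2 and 3, at 0.116, 0.14 and 0.439 in E7 libraries 1, 2 and 3, and at 0.139 to 0.168 at E3.

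COL9A1 (771873) and COL9A3 (396242) encode chains of type IX collagen, which lies on the surface of type II fibrils. Both were scarce. COL9A3 had 5.96, 6.33 and 5.81 FPKM at E3, 1.35, 1.19 and 1.33 FPKM at E5 and 1.01, 0.77 and 1.24 FPKM at E7. All corneal libraries were below all E3 libraries, with little spread, and the counts behind them were 29 to 91 per corneal library. COL9A3 fell by 2.05 on the log2 scale at E5 (SE 0.23, adjusted p = 0.000488) and by 2.44 at E7 (SE 0.23, adjusted p = 0.000245). COL9A1 had 9, 0 and 0 counts in the E3 libraries, 4, 0 and 250 in E5 libraries 1, 2 and 3, and 48, 56 and 4 in E7 libraries 1, 2 and 3. A count of 0 allows up to 3 counts, and no level passed 3.31 FPKM, in E5 library 3. COL9A1 was thus detected above a few counts in the corneal libraries with high COL2A1. Its log2 fold changes of 4.90 ± 2.32 at E5 (adjusted p = 0.135) and 4.36 ± 2.30 at E7 (adjusted p = 0.179) did not pass the test, and the first was -0.59 without E5 library 3. Without both E5 library 3 and E7 library 3 the value at E7 was 4.89 (adjusted p = 0.0249).

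COL9A3 over COL9A1 was 10.4, 12.9 and 0.419 in E5 libraries 1, 2 and 3 and 0.841, 0.784 and 7.05 in E7 libraries 1, 2 and 3, against 27.5, 64.3 and 59.1 at E3, with 0.1 FPKM added to each. The log2 ratio was lower by 4.22 in the corneal libraries, at 1.34 ± 2.19 against 5.56 ± 0.67 at E3 (SD, exact two-sided permutation test, p = 0.0238, adjusted p = 0.0357). With 9, 0 and 0 counts of COL9A1 at E3, and 0 to 4 in E5 libraries 1 and 2 and E7 library 3, the added constant sets most of these ratios, which there follow COL9A3 alone. The test therefore does not show a change in the proportion of the chains, and with 1 FPKM added the difference was -2.40.

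COL12A1 (395875), the chain of the fibril-associated type XII collagen, changed least among the called members. It had 41.9, 44.2 and 40.1 FPKM at E3, 42.5, 50.4 and 72 FPKM at E5 and 72.8, 69.6 and 47.5 FPKM at E7. The E7 libraries were above the E3 libraries, and E5 overlapped with both. It rose by 0.58 ± 0.17 at E5 (adjusted p = 0.0297) and by 0.73 ± 0.17 at E7 (adjusted p = 0.013). Both calls were lost in limma on log2(FPKM + 1), at 0.34 and 0.55 (adjusted p = 0.227 and 0.0693). That at E5 was lost, at 0.56 to 0.63, whenever an E3 library or E5 library 2 was left out (adjusted p up to 0.0944) and, at 0.58, with the replicate block (0.0791). Without E5 library 3 it was lost at 0.40 (0.0608). That at E7 was lost without E3 library 1 or 3, at 0.72 and 0.70 (both 0.0512). Without both E5 library 3 and E7 library 3 both calls stood, at 0.40 and 0.86. Scaled by library size alone, which put the median of all genes at -0.14, the E5 value was 0.41 (adjusted p = 0.139).

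**Figure D4:**
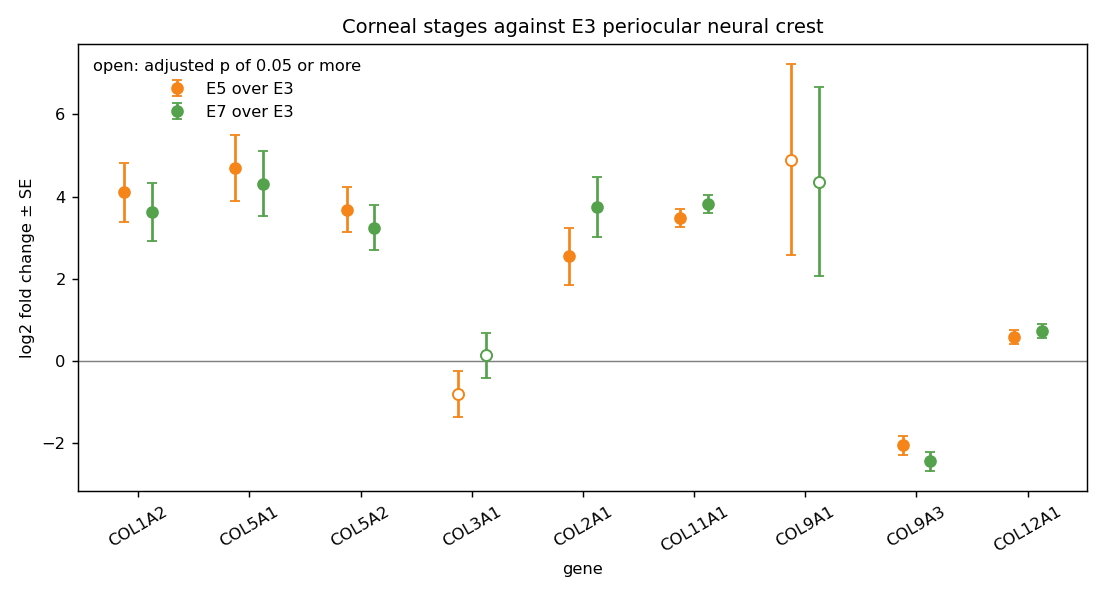
Points give the log2 fold change of each gene at E5 over E3 and at E7 over E3 from edgeR, with bars for ± SE, and open points for an adjusted p of 0.05 or more. The type I, II, V and XI chains lay between 2.55 and 4.70, COL12A1 at 0.58 and 0.73, COL9A3 at -2.05 and -2.44, and COL3A1 and COL9A1 did not pass the test.

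Several members were listed under more than 1 transcript, whose counts are estimates where transcripts overlap. COL12A1 had 5 entries, and the longest, of 11577 bases, took 64.3 to 65.4% of its counts at E5, 59.8 to 64.4% at E7 and 58.7 to 60.1% at E3. The shortest, of 6057 bases, took 17.9 to 23.7% at E5, 18.2 to 23.7% at E7 and 22.3 to 23.3% at E3. The entry of 9644 bases held 0.96 to 1.63% at E5, 0 to 6.95% at E7 and 5.67 to 6.19% at E3. COL11A1 had 5 entries as well, and that of 6163 bases held at least 89.86% of its counts in every library. COL3A1 had a pair, with the entry of 6078 bases at 5.75, 4.47 and 1.69% in E5 libraries 1, 2 and 3, at 0.88, 1.96 and 9.22% in E7 libraries 1, 2 and 3, and at 2.1 to 2.29% at E3. Its share was highest in the libraries where COL3A1 was lowest. The other 6 genes had a single entry each.

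Between the corneal stages no member passed the test. Of the 9 genes tested at E7 against E5 none rose or fell in edgeR, as among all 11748 genes (0% in each direction, with 279 genes at an unadjusted p under 0.05, 11 called by DESeq2, and 0 and 1 called by limma on log2(FPKM + 1) and log2(FPKM + 0.1)). The smallest unadjusted p among the members was 0.11, that of COL2A1. The log2 fold changes at E7 against E5 were 1.19 ± 0.66 for COL2A1, 0.94 ± 0.55 for COL3A1, 0.34 ± 0.20 for COL11A1 and 0.15 ± 0.17 for COL12A1. They were -0.48 ± 0.63 for COL1A2, -0.40 ± 0.69 for COL5A1, -0.43 ± 0.50 for COL5A2, -0.39 ± 0.22 for COL9A3 and -0.54 ± 1.89 for COL9A1 (adjusted p = 0.972 for all but COL9A1, at 0.981). With standard errors of 0.50 to 1.89 in 6 of the 9 genes, a p that misses the threshold does not show that the stages were alike.

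The E7 against E5 comparison rested on E5 library 3 and E7 library 3. Without both, 3 members rose and 3 of the fibril-forming chains fell at E7 against E5, where 11.3% of 11962 genes rose and 11.4% fell. COL2A1 rose by 2.43 ± 0.38 (adjusted p = 0.00493), COL3A1 by 1.99 ± 0.31 (adjusted p = 0.00487) and COL12A1 by 0.46 ± 0.09 (adjusted p = 0.0121). COL1A2 fell by 1.82 (SE 0.21, adjusted p = 0.0016), COL5A1 by 1.92 (SE 0.22, adjusted p = 0.00137) and COL5A2 by 1.53 (SE 0.10, adjusted p = 0.000196). The libraries were left out because they stood apart in these same data, so these p-values are no independent evidence of a stage difference. The keratocyte markers KERA, LUM, DCN, OGN, CHST1, CHST6 and B3GNT7 fell at E7 against E5 too, at log2 fold changes of -2.46 to -1.20. PTGDS, the remaining keratocyte marker, did not pass the test (-0.54, adjusted p = 0.609). Yet only the E7 label names keratocytes. The part of these cells in the collagen values was not tested. COL11A1 was at 0.27 ± 0.22 in this fit (adjusted p = 0.429).

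**Figure D5:**
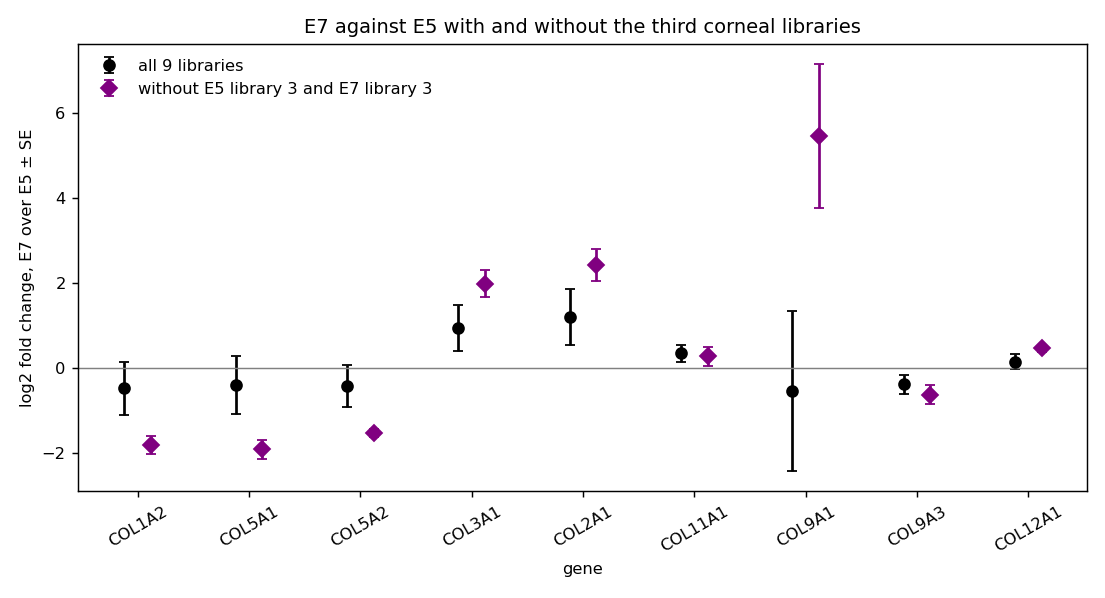
Points give the log2 fold change at E7 over E5 with ± SE from all 9 libraries (black) and without E5 library 3 and E7 library 3 (purple diamonds). With all libraries every value lay between -0.54 and 1.19, and without the 2 libraries COL1A2, COL5A1 and COL5A2 lay between -1.92 and -1.53 and COL2A1 and COL3A1 at 2.43 and 1.99.

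Of 11 other fibrillar and fibril-associated collagens listed, 8 had an entry. Of these, 4 rose and none fell at E5 against E3 and again at E7 against E3. Over all genes tested, 17.3 to 18.5% rose and 16.4 to 17.7% fell. COL9A2, COL19A1, COL21A1 and COL22A1 did not pass the test. Without E5 library 3 and E7 library 3, COL9A2, COL19A1 and COL22A1 passed it at E5 against E3 but not at E7. COL19A1 was then at -5.89 at E5 (adjusted p = 0.00836) and 0.95 at E7 (adjusted p = 0.394). The list had a median log2 fold change over the 8 of 2.80 and 3.33, against 0.03 and 0.04 over all genes tested. COL14A1, a fibril-associated collagen related to type XII, had 10.1, 4.83 and 60.9 FPKM in E5 libraries 1, 2 and 3 and 162, 74.9 and 11.2 FPKM in E7 libraries 1, 2 and 3, against 1.2 to 1.45 FPKM at E3 (log2 fold change 4.40 ± 1.17 at E5, adjusted p = 0.021, and 6.09 ± 1.26 at E7, adjusted p = 0.00804). It was highest in the libraries with high COL2A1, and without E5 library 3 and E7 library 3 its log2 fold changes were 2.72 and 6.60. COL16A1, another fibril-associated collagen, had 110, 73.5 and 29 FPKM at E5 and 40.3, 30 and 101 FPKM at E7, against 2.69 to 2.88 FPKM at E3 (4.87 ± 0.68, adjusted p = 0.00138, and 4.53 ± 0.67, adjusted p = 0.00184). It was highest in the 3 corneal libraries with high COL1A2, and at 5.26 and 3.76 without E5 library 3 and E7 library 3. COL24A1, a fibrillar collagen related to the type V and XI chains, had 11.7 to 31.1 FPKM at E5 and 15.6 to 27.6 FPKM at E7, against 9.42 to 13 FPKM at E3 (1.26 ± 0.38, adjusted p = 0.0335, and 1.15 ± 0.38, adjusted p = 0.0478). COL20A1 rose too, with 0.57 to 1.36 FPKM at E5 and 1.24 to 2.75 FPKM at E7, against 0.09 to 0.12 FPKM at E3 (3.52 ± 0.47, adjusted p = 0.00117, and 4.19 ± 0.48, adjusted p = 0.000601).

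Among 13 measured genes for the trafficking and propeptide processing of procollagen, 7 rose and 2 fell at E5 and likewise at E7, each against E3. The shares of all genes were 17.3 to 18.5% that rose and 16.4 to 17.7% that fell. The median log2 fold change of the 13 was 1.34 at E5 and 1.12 at E7. SERPINH1, the collagen chaperone of the endoplasmic reticulum, averaged 210 ± 81.4 FPKM at E5 and 194 ± 88.4 FPKM at E7, against 41.8 ± 11 FPKM at E3 (log2 fold change 2.53 ± 0.45, adjusted p = 0.00399, and 2.37 ± 0.45, adjusted p = 0.00525). SEC24D, a coat protein of the vesicles that carry procollagen out of the endoplasmic reticulum, rose by 2.78 ± 0.52 (adjusted p = 0.00491) and 2.50 ± 0.52 (adjusted p = 0.00789), and its partner SEC23A by 1.34 ± 0.33 (adjusted p = 0.015) and 1.12 ± 0.33 (adjusted p = 0.0309). ADAMTS14, a procollagen N-propeptidase, fell by 1.06 (SE 0.29, adjusted p = 0.0241) at E5 and by 1.01 (SE 0.29, adjusted p = 0.0312) at E7. MIA2, a cofactor of procollagen export from the endoplasmic reticulum, fell slightly (-0.48 ± 0.10, adjusted p = 0.00633, and -0.56 ± 0.10, adjusted p = 0.00345). The N-propeptidase ADAMTS2 had 30.3, 19.3 and 0.17 FPKM in E5 libraries 1, 2 and 3 and 0.34, 0.33 and 32.1 FPKM in E7 libraries 1, 2 and 3, against 0.11 to 0.21 FPKM at E3 (adjusted p = 0.0539 at E5, 0.0716 at E7 and 0.0497 for both stages together against E3). It was high only in the 3 corneal libraries with high COL1A2. Without E5 library 3 and E7 library 3 its log2 fold change was 7.50 at E5 (adjusted p = 2.68e-06) and 1.18 at E7 (adjusted p = 0.0656).

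Of 7 measured receptors for fibrillar collagen, 3 rose and none fell at either corneal stage against E3. Among all genes, 17.3 to 18.5% rose and 16.4 to 17.7% fell. The median log2 fold change of the 7 receptors was 0.57 at E5 and 0.83 at E7. Without E5 library 3 and E7 library 3, MRC2 rose as well at E5 (0.67, adjusted p = 0.00165, against 0.57, adjusted p = 0.0907, with all 9 libraries). ITGA2 then rose at E7 (1.73, adjusted p = 0.016, against 1.26, adjusted p = 0.25). DDR2, a receptor tyrosine kinase for fibrillar collagen, had 74.6, 80.2 and 67.8 FPKM at E5 and 48.9, 67.4 and 74.3 FPKM at E7, against 20.4 to 21.7 FPKM at E3 (2.0 ± 0.18, adjusted p = 0.00016, and 1.74 ± 0.17, adjusted p = 0.000314). The integrin subunit ITGA11, which binds type I collagen, rose by 3.28 ± 0.53 (adjusted p = 0.00257) and 2.82 ± 0.52 (adjusted p = 0.00468, or 2.07 without E5 library 3 and E7 library 3), and ITGA1 by 0.82 ± 0.16 (adjusted p = 0.00578) and 0.83 ± 0.16 (adjusted p = 0.00565). The epithelial receptor DDR1 stood at 8.68 ± 2.97 FPKM at E5, 11.1 ± 2.7 FPKM at E7 and 15 ± 1.75 FPKM at E3 and did not pass the test (adjusted p = 0.0658 and 0.343), but fell at E5 by 0.89 without E5 library 3 and E7 library 3 (adjusted p = 0.00084). Of 6 collagen proteases with an entry, 3 passed the filter on low counts. MMP2 rose by 2.17 ± 0.48 at E5 (adjusted p = 0.00972) and 1.76 ± 0.47 at E7 (adjusted p = 0.0222), and MMP16 by 0.64 ± 0.16 (adjusted p = 0.0156) and 0.50 ± 0.16 (adjusted p = 0.042). CTSK, cathepsin K, had 66.3, 37.1 and 8.49 FPKM at E5 and 7.45, 8.23 and 61.8 FPKM at E7, against 3.04 to 4.04 FPKM at E3 (3.65 ± 1.05, adjusted p = 0.0284 at E5, and 3.10 ± 1.04, adjusted p = 0.05, at E7). Its values were 4.13 (adjusted p = 2.82e-05) and 1.30 (adjusted p = 0.00871) without E5 library 3 and E7 library 3. The collagenase genes MMP1 and MMP13 were at or under 0.23 FPKM in all libraries.

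Transcription factors known to act on collagen genes went both ways. Of 9 with an entry, 8 passed the filter on low counts. Of these, 3 rose and 3 fell at E5 against E3, and 2 rose and 3 fell at E7 against E3. Their medians were 0.68 and 0.39 on the log2 scale, while 17.3 to 18.5% of all genes rose and 16.4 to 17.7% fell. SOX9, the activator of COL2A1 in cartilage, had 1, 1.18 and 0.62 FPKM at E5 and 2.54, 1.25 and 1.24 FPKM at E7, against 14.2, 8.84 and 8.63 FPKM at E3 (log2 fold change -3.30 ± 0.41, adjusted p = 0.00084, and -2.52 ± 0.40, adjusted p = 0.00256). Its level was thus lower in each corneal library than in each E3 library while that of COL2A1 was higher. SOX5, its partner in cartilage, fell as well (-6.33 ± 1.19, adjusted p = 0.00491, and -5.21 ± 1.13, adjusted p = 0.00962), as did the osteoblast factor SP7 (-2.56 ± 0.75, adjusted p = 0.0297, and -3.30 ± 0.80, adjusted p = 0.0148). SP7 was at -3.54 and -3.32 without E5 library 3 and E7 library 3. SCX, scleraxis, an activator of type I collagen genes in mouse tendon, had 41.6, 44.6 and 74.6 FPKM at E5 and 64, 82 and 46.6 FPKM at E7, against 4.32 to 4.89 FPKM at E3 (3.70 ± 0.26, adjusted p = 5.15e-05, and 3.93 ± 0.26, adjusted p = 4.01e-05). CREB3L1, known for activating COL1A1 in mouse bone, had 118, 107 and 34.9 FPKM at E5 and 21.6, 28.6 and 120 FPKM at E7, against 8.11 to 9.27 FPKM at E3 (3.49 ± 0.77, adjusted p = 0.00949, and 2.87 ± 0.75, adjusted p = 0.0197). CREB3L1 was at 3.88 and 1.62 without E5 library 3 and E7 library 3. MKX rose at E5 by 4.93 ± 1.46 (adjusted p = 0.0311), to at most 1.16 FPKM.

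Patterns over the 9 libraries were searched among tested genes outside the list with a mean FPKM of at least 5 in some stage. Among these, the genes most like COL5A1 were CD63, GALNT16 and B3GNT7, each with a Pearson correlation of 0.998 on log2(CPM + 1). B3GNT7, an enzyme of keratan sulfate synthesis, had 47, 35.4 and 8.48 FPKM in E5 libraries 1, 2 and 3 and 8.66, 7.61 and 51.4 FPKM in E7 libraries 1, 2 and 3, against 0.46 to 0.69 FPKM at E3. Most like COL12A1 were NSG1 (0.992), CDH2 (0.990) and AFDN (0.989). Most like COL9A1 were CADM1 (0.985), PALLD (0.973) and KCTD10 (0.967), though COL9A1 passed 9 counts only in E5 library 3 and E7 libraries 1 and 2. COL2A1 and COL1A2 were added after their values had been seen. COL2A1 was followed most closely by COL14A1 (0.998), C2orf40 (0.997) and TMEM106C (0.997), and COL1A2 by SRP72, CD63 and PDGFRL (0.997 each). The libraries differ by stage and by the split among corneal libraries described above, so many genes share such patterns, and the correlations are a description only.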

How the data were processed

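Per the file headers, the authors deposited 2 values per entry and library, an expected count, which may be fractional, and the FPKM. The entry length in bases, of another unit, is also theirs, per the file headers. Bowtie2, HISAT and galGal5, a chicken genome build, are named per the submitters' processing notes. Tool versions, annotation, counting program and strand setting: not given in the sources used here. The lowest listed FPKM is 0.01, and a library without an entry was given 0 for it.

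Entries were named by gene number, or by transcript accession regardless of version, with a RefSeq gene table of assembly GRCg7b, so no coordinates are given. Of 46855 entries, 22897 accessions, with 21.4 to 23.5% of the counts of a library, had no match. These may hold further transcripts of the genes described, whose levels would then be too low. They count in library sizes but in no gene. Entries were summed per gene.

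Sums were rounded and fitted with edgeR 4.0.16 in R 4.3.3 (TMM factors, filterByExpr, no covariates, all 9 libraries), with a threshold of 0.05 on adjusted p. The SE is the absolute log2 fold change divided by the square root of F. The fit was tested on simulated data. Chain ratios were tested by exact permutation, and 3 planned ratios with COL1A1 could not be computed. For genes of the other lists, leaving out E5 library 3 and E7 library 3 was chosen after seeing the data. Alternatives used limma 3.58.1, DESeq2 1.42.0 and other settings given at the end. Floors of 3 counts correspond to 0.129 to 0.304 CPM per library and cover counting error only. No pair of libraries of a stage agreed within sampling noise (chi-square per degree of freedom 10 to 145.94).

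All list members were described. From 5 gene lists, the called genes that changed most, if their mean FPKM was at least 5, and any called gene of a list with 5 or fewer, could be named, and not all are printed. DDR1, MRC2, ITGA2, MMP1, MMP13, MKX at E5 and the markers with single values were named after their values were seen. The genes and lists were chosen with earlier results of these data known.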

Additional observations from a re-analysis of the deposited data

How the results depend on the processing

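The counts of members that rose against E3 stayed within 1.5 times under every alternative run, and COL11A1, COL1A2, COL5A1, COL5A2 and COL9A3 kept their calls against E3 in all of them. Leaving out 1 library at a time gave 4 to 6 risers and 1 to 2 fallers at E5 over E3, 5 to 6 and 1 at E7 over E3, 6 and 1 for both stages over E3, and 0 at E7 over E5. Calls over all genes then ran from 2762 to 4801, 2579 to 4490, 3380 to 5351 and 0 to 1. Without library 3 of both corneal stages, 2 members fell at E5 over E3, and 3 rose and 3 fell at E7 over E5, with 2718 calls over all genes. DESeq2 called 11 genes at E7 over E5 and limma on log2(FPKM + 0.1) called 1.

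Signs turned only for genes that did not pass the test of that comparison with or without the change. COL9A1 at E5 over E3 ran from -0.59 to 9.32 with 1 library left out, turning without E5 library 3, alone or with E7 library 3. At E7 over E5 it turned to 0.04 and 0.85 in limma with 1 and 0.1 added, to 1.44 with the replicate block and to 5.47 without both, and ran from -1.13 to 4.95 with 1 library left out, turning without E5 library 3. COL3A1 at E7 over E3 turned to -0.19 and -0.20 in limma, and ran from -0.47, without E7 library 1, to 0.49. COL5A1 at E7 over E5 ran from -1.51 to 0.10, turning without E5 library 1, and COL12A1 to -0.06 with 1 entry per gene. The causes were not tested.

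The ratio of COL5A2 to COL5A1 passed no threshold on CPM (-0.89, adjusted p = 0.0714) or without both libraries (-0.93, 0.0857), and ran from -1.0 to -0.80 with 1 library left out. That of COL9A3 to COL9A1 gave -5.06 (0.0714) and -3.94 (0.0857) in those settings, and -4.69 to -3.70. With fewer libraries the smallest p of the permutation test rises, and no ratio passed with any library left out (adjusted p = 0.0536 to 0.107). The ratio of COL11A1 to COL5A1 ran from -0.83 to -0.32.

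The replicate number as a block left 4 risers at E5 over E3, without COL2A1 and COL12A1, and 6 at E7 over E3, with 3128 and 2897 calls over all genes. Libraries of the same number did not deviate together (correlations of deviations from -0.77 to 0.09). The split among the corneal libraries enters these deviations, so they cannot show whether the numbers mark a pairing. COL12A1 lost its calls with 1 entry per gene (0.48 and 0.41). Library size alone moved the median of all genes to -0.14 at E5 and -0.10 at E7 over E3, where COL12A1 at E5 was the sole call lost among members. Depth limits COL9A1 and COL9A3.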

Other observations

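Some genes near the described ones passed no test with all 9 libraries. Of these, COL22A1, ADAMTS3 and TLL1 split the corneal libraries in the same way, and COL9A2 did not. They were picked after their values had been seen. COL22A1, a fibril-associated collagen of tissue junctions, had 3.02, 2.01 and 0 FPKM in E5 libraries 1, 2 and 3 and 0, 0.19 and 3.69 FPKM in E7 libraries 1, 2 and 3, against 0 to 0.09 FPKM at E3. The N-propeptidase ADAMTS3 had 13.6, 12.8 and 2.89 FPKM at E5 and 3.63, 3.73 and 13.7 FPKM at E7, against 2.5 to 2.99 FPKM at E3. The tolloid protease TLL1 ran the other way, with 1.38, 1.29 and 7.38 FPKM at E5 and 11.5, 8.04 and 1.31 FPKM at E7, against 11.4 to 16.4 FPKM at E3. COL9A2, the remaining chain of type IX collagen, had 14.7, 2.16 and 2.04 FPKM at E5 and 10.3, 3.59 and 11.9 FPKM at E7, against 0.72 to 2.46 FPKM at E3 (adjusted p = 0.105 and 0.0673). It followed neither COL9A1 nor COL9A3. Without E5 library 3 and E7 library 3, COL22A1 was at 6.06 at E5 against E3 (adjusted p = 0.00313) and 1.34 at E7 (0.417). ADAMTS3 was at 2.45 (3.45e-06) and 0.49 (0.00804), and TLL1 at -3.24 (4.7e-05) and -0.32 (0.235). COL9A2 was at 2.52 (0.0428) and 2.12 (0.0855). The libraries were left out because they stood apart in these same data.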
